A study of Arabidopsis thaliana with 30 samples.

Results

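The genes described here are NCED3, which encodes the epoxycarotenoid dioxygenase that commits carotenoid precursors to abscisic acid (ABA), and the 9 clade A protein phosphatases that hold ABA signalling off, ABI1, ABI2, HAB1, HAB2, HAI1, HAI2, HAI3, AHG1 and AHG3. They were chosen by gene identifier, 10 of the 32820 genes measured, and followed through all 30 libraries and 10 groups of the series. The members and the gene lists below were chosen with earlier results of these data known. Their counts are therefore set beside the shares of all tested genes as a description only. The series asked how Arabidopsis thaliana leaves that are distant from waterlogged roots respond, and whether the respiratory burst oxidase RBOHD takes part. RNA from such systemic leaves was sequenced from wild-type plants (WT, Col-0) at 0 min with no treatment, at 10, 30 and 60 min as untreated controls and at 10, 30 and 60 min of waterlogging, and from plants labelled rbohD, a mutant of RBOHD, at 0 min with no treatment and at 60 min as controls and as waterlogged plants. Each group had 3 libraries, described as repeats composed from 15 plants per genotype and time point. The labels name neither the allele behind rbohD nor the age of the plants, and they do not say whether the repeats were separately grown. The p-values therefore rest on the spread between libraries within groups, part of which may be technical. In the main test that spread was pooled over all 10 groups.

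ABA accumulates in drying leaves, closes stomata and changes the expression of many genes. Its PYR/PYL receptors, once ABA is bound, dock onto clade A phosphatases and block them, which frees the SnRK2 kinases that the phosphatases keep dephosphorylated, and these kinases then activate ABF transcription factors and guard cell ion channels. Genes of several of these phosphatases are themselves induced by ABA in Arabidopsis, a negative feedback, and NCED3 is known as the stress-induced dioxygenase of leaves and their veins.

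The genes lie on all 5 nuclear chromosomes, with positions from the deposited files (TAIR10, 1-based) and exon counts from the RefSeq annotation. NCED3 (AT3G14440, chr3:4831286-4834015, minus strand) is a gene of 1 exon. ABI1 (AT4G26080, chr4:13219915-13222376, minus), ABI2 (AT5G57050, chr5:23087122-23089631, plus), HAB1 (AT1G72770, chr1:27389948-27393327, plus), HAB2 (AT1G17550, chr1:6034270-6037398, plus), HAI1 (AT5G59220, chr5:23894404-23896939, minus) and AHG3 (AT3G11410, chr3:3583782-3585850, minus) are protein-coding genes of 3 to 6 exons, depending on the transcript. HAI2 (AT1G07430), HAI3 (AT2G29380) and AHG1 (AT5G51760) complete the clade. FPKM were given per gene, so reads from the whole exonic model, coding and untranslated, enter each value.

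The sequences upstream of the members were read from the TAIR10.1 assembly of RefSeq, as the 300 bases before the annotated gene start, whose boundaries are identical to those in the deposited files for all 10 members. The letters ACGTG, the core of the ABA response element to which ABF factors bind, were searched on both strands. They were found in 7 of 10 windows (ABI1, HAB1, HAB2, HAI2, HAI3, AHG1 and AHG3), against 25.6% of the windows of 27440 protein-coding genes. Counted on each strand, AHG3 and HAI2 held 5 matches each. Of all windows 3.44% held 3 or more, and the share with 5 or more was not computed. The windows of NCED3, ABI2 and HAI1 held no match. The G-box letters CACGTG, which contain ACGTG, were found in the windows of AHG1 and AHG3 and in 7.09% of all windows. They hold ACGTG on each strand, so in AHG1 and AHG3 the same letters count as a match on both. The letters CGCGTT, the core of the rapid stress response element, were found in no member's window and in 3.08% of all windows. A match is a description of these letters and not a binding site. The windows below belong to the 4 phosphatases whose transcripts passed the test after 30 min of waterlogging, so that AHG3, with 5 matches, can be read beside HAI1, which has none; capitals mark ACGTG or its reverse complement, and each line reads 5′ to 3′ toward the gene.
AHG3 (chr3:3585851-3586150, minus strand): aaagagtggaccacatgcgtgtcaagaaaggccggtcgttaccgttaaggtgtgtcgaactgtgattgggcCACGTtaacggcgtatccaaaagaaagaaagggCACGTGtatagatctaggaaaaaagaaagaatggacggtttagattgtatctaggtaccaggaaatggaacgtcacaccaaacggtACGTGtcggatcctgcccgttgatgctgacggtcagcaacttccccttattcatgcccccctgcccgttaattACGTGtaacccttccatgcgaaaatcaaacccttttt
ABI1 (chr4:13222377-13222676, minus strand): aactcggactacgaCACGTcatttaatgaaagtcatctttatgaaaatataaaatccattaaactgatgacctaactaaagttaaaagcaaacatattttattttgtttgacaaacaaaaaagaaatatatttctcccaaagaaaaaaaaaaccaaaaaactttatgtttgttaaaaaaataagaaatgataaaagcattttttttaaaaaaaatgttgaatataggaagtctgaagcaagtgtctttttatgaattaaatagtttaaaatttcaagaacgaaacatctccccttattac
HAB1 (chr1:27389648-27389947, plus strand): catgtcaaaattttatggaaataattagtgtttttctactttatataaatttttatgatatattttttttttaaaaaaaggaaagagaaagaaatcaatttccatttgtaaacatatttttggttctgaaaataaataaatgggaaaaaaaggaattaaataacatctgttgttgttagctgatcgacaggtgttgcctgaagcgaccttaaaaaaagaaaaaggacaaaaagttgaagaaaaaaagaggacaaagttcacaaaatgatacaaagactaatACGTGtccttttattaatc
HAI1 (chr5:23896940-23897239, minus strand): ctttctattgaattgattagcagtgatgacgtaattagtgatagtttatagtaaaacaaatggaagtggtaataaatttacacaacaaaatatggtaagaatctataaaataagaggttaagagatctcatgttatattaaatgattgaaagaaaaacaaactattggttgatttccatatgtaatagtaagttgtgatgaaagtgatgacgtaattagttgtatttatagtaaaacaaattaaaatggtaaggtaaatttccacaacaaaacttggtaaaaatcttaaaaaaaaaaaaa
In AHG3 the matches lay between 37 and 229 bases before the start, in ABI1 the match lay 286 bases before it, and in HAB1 19 bases before it.

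The values were gene-level FPKM, that is, fragments per gene length and sequencing depth as the authors computed them. Judged by the width of the authors' intervals, libraries held 10.9 M to 13.3 M fragments. The nuclear 18S rRNA gene AT3G41768 stood at 4050 to 5754 FPKM in 10 libraries, namely the 9 labelled rbohD together with replicate 3 of waterlogged WT at 60 min, and at 1473 to 2640 FPKM in the other 20. RBOHD transcript was not lower under the rbohD label at 0 min, with 19.99 to 21.7 FPKM against 17.1 to 17.6 FPKM in WT. In the 60 min controls it was lower under the label, with 12.4 to 13.1 FPKM against 21.2 to 25.0 FPKM, and in waterlogged leaves at 60 min it stood at 11.9 to 15.7 FPKM against 13.3 to 13.8 FPKM. Statements on rbohD therefore concern libraries labelled rbohD. The labelled tissue was borne out by its markers: the 3 leaf markers RBCS1A, CAB1 and RCA summed to 39173 to 48938 FPKM, while the 4 root markers summed to at most 0.0756 FPKM and 2 of them were listed at 0 in every library.

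Before treatment, HAB1 and AHG3 were the most abundant of these transcripts. In WT leaves at 0 min HAB1 stood at 37.0 ± 0.968 FPKM (mean ± SD, n = 3 here and below) and AHG3, the gene named PP2CA in the files, at 36.7 ± 2.06 FPKM. ABI1 followed at 21.1 ± 1.16, HAB2 at 18.9 ± 1.06, ABI2 at 6.07 ± 0.573, NCED3 at 5.62 ± 0.855 and HAI1 at 1.42 ± 0.277 FPKM. FPKM is a level per gene length, so these levels can be set side by side. The neighbours HAB1 and AHG3, ABI1 and HAB2, and ABI2 and NCED3 overlapped in their libraries. HAB1 made up 30.4% of the summed FPKM of the 9 phosphatases and AHG3 30.2%. The other 3 phosphatases were close to absent. HAI2 reached at most 0.557 FPKM, which the intervals put at 5 to 20 fragments per library. HAI3, which with HAI1 and HAI2 forms the highly ABA-induced branch, was listed at 0 in 27 libraries, and AHG1, a phosphatase known from seeds, in 29.

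**Figure D1:**
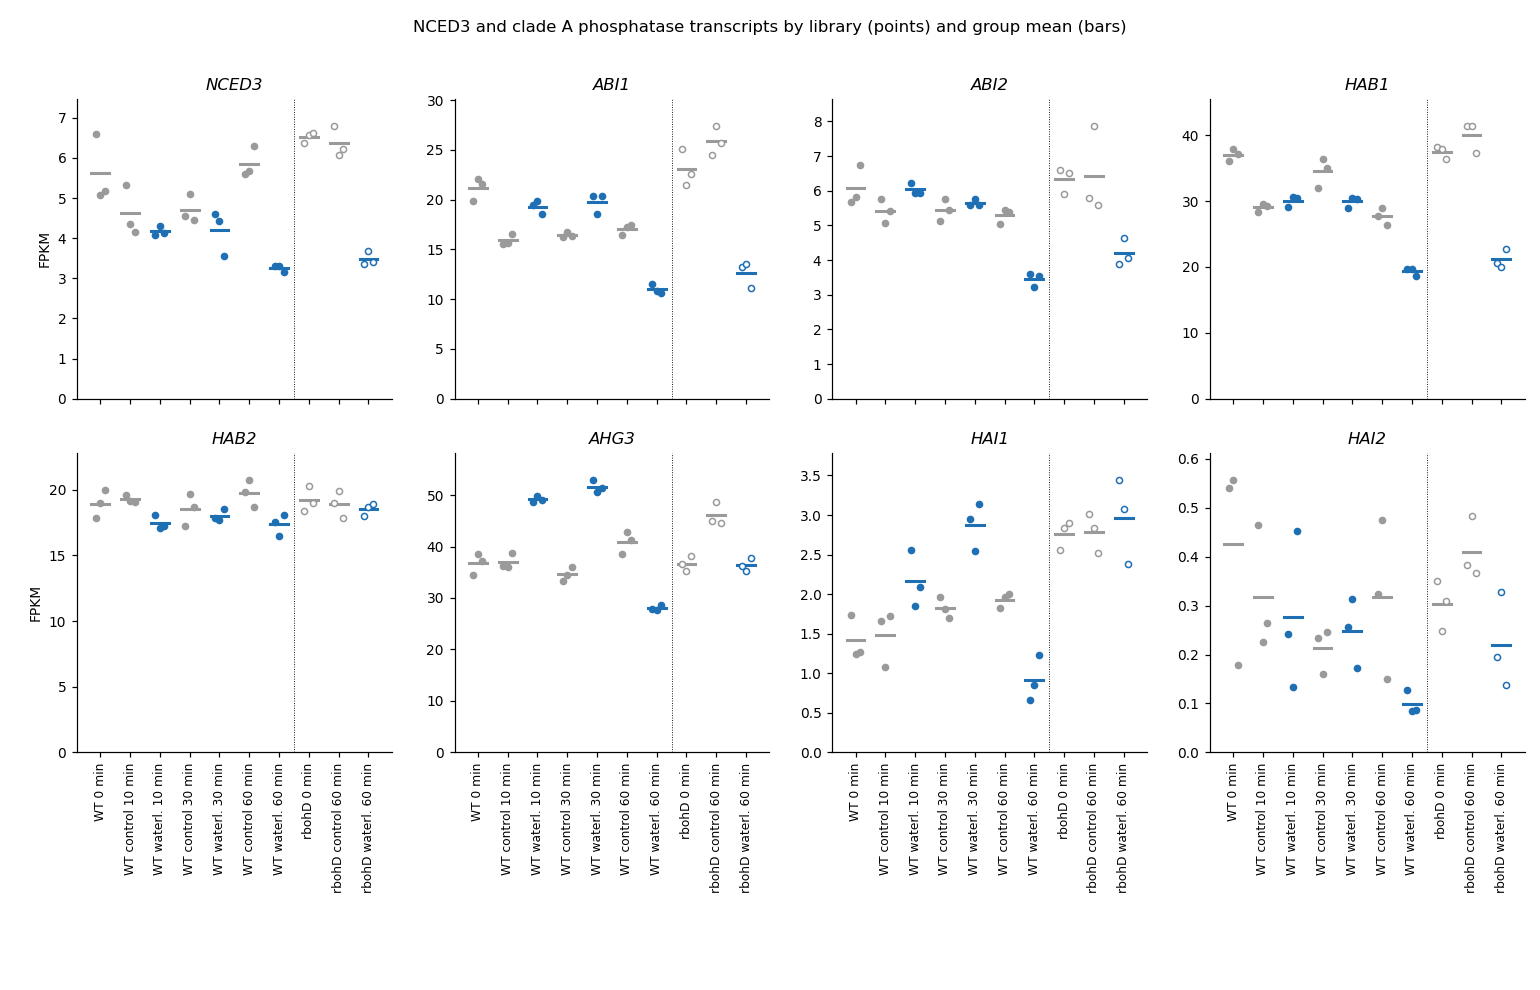
FPKM of 8 members (vertical axes, linear, each panel with its own scale starting at 0) in the 10 groups; each point is 1 library, bars are group means, blue marks waterlogged leaves, grey untreated leaves, and open points libraries labelled rbohD. AHG3 sits highest in WT waterlogged leaves at 10 and 30 min and lowest at 60 min, whereas HAB2 keeps within 16.5 to 20.7 FPKM in all 30 libraries.

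The genes were tested with limma on log2(FPKM + 1) over the 17491 genes whose mean over all libraries reached 1 FPKM, and a change was called at a Benjamini-Hochberg adjusted p under 0.05, two-sided. Of the 10 members 7 passed that filter, and HAI2, HAI3 and AHG1 did not. Fold changes on this scale understate changes of low genes such as HAI1. Levels come from whole leaves, in which fewer cells of a type and less RNA per cell cannot be told apart. Reads of ABI1 carry a further limit: its last 22 bases overlap AT4G26070, a protein-coding gene on the opposite strand that the files name MEK1, and strand use is not given in the sources used here, so reads in that overlap cannot be assigned. MEK1 itself was not called at 10 min (log2 fold change -0.24, adjusted p 0.505) and rose by 1.14 at 60 min (adjusted p 4.09e-07).

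After 10 min of waterlogging, AHG3 and ABI1 were higher in WT leaves than in matched controls, 2 of the 7 tested members, against 4.14% of all tested genes called higher and 0.863% called lower. AHG3, a phosphatase that restrains SnRK2 kinases and the SLAC1 channel of guard cells, read 48.6, 49.7 and 49.1 FPKM in waterlogged leaves and 36.3, 36.0 and 38.7 FPKM in the matched controls. The lowest waterlogged library lay well above the highest control (log2 fold change 0.40, SE 0.05, limma adjusted p 2.51e-06). ABI1, the phosphatase found through the first ABA-insensitive mutant, read 19.4, 19.8 and 18.6 FPKM against 15.5, 15.7 and 16.6 FPKM. These groups did not overlap either (log2 fold change 0.26, SE 0.06, limma adjusted p 0.0142). ABI1 averaged 19.3 FPKM in these waterlogged leaves and 21.1 FPKM in WT at 0 min, so its mean did not exceed the 0 min mean. AHG3 averaged 49.2 FPKM against 36.7 FPKM at 0 min. Waterlogged leaves were not tested against 0 min. The ABI1 call was lost without WT control 10 min replicate 1 or 2 or WT waterlogging 10 min replicate 1 or 2, and its adjusted p ranged from 0.00428 to 0.0745 over all alternatives. HAI1, the senescence-linked member of the highly ABA-induced branch, read 2.55, 1.85 and 2.09 FPKM against 1.66, 1.08 and 1.72 FPKM. Its groups did not overlap, and the test did not call it (log2 fold change 0.35, SE 0.12, limma adjusted p 0.103). The groups of ABI2 (0.13, limma adjusted p 0.565) and HAB2 (-0.13, limma adjusted p 0.241) did not overlap either, and neither gene was called. HAB1 was not called (0.04, limma adjusted p 0.840). NCED3, at 4.09, 4.32 and 4.14 FPKM against 5.33, 4.36 and 4.17 FPKM, was not called, with a 95% interval of the difference from -0.29 to 0.06 on the log2 scale. The median log2 fold change of the 7 tested members was 0.13, beside -0.01 over all tested genes.

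At 30 min 3 of the 7 tested members were higher than in controls and 1 was lower, with 7.78% of all tested genes called higher and 4.10% lower. AHG3 reached its highest level of the series, at 52.9, 50.7 and 51.4 FPKM against 33.3, 34.4 and 36.1 FPKM in controls, and the groups stood far apart (log2 fold change 0.57, SE 0.05, limma adjusted p 3.67e-09). ABI1 read 20.4, 18.6 and 20.4 FPKM against 16.3, 16.7 and 16.3 FPKM, again without overlap (log2 fold change 0.25, SE 0.06, limma adjusted p 0.00917). Its waterlogged mean of 19.8 FPKM was again below the WT 0 min mean of 21.1 FPKM. HAI1 read 2.95, 2.54 and 3.14 FPKM against 1.96, 1.81 and 1.70 FPKM, so every waterlogged library exceeded every control (log2 fold change 0.46, SE 0.12, limma adjusted p 0.00910). The HAI1 call was lost without WT waterlogging 30 min replicate 3, over a range of adjusted p from 0.00543 to 0.0529. HAB1, a close homologue of HAB2 and a main docking partner of the receptors, differed the other way: it read 29.0, 30.5 and 30.3 FPKM against 32.0, 36.4 and 35.1 FPKM, and all waterlogged libraries lay below the controls (log2 fold change -0.20, SE 0.05, limma adjusted p 0.0141). In waterlogged leaves HAB1 averaged 30.0 FPKM at 10 min and 29.9 FPKM at 30 min. In controls HAB1 averaged 29.1 FPKM at 10 min, 34.5 at 30 min and 27.7 at 60 min. Its call was lost in a fit of only the groups compared and without WT control 30 min replicate 2 or 3 or WT waterlogging 30 min replicate 1, with adjusted p from 0.00277 to 0.111 over all alternatives. NCED3 (-0.14, adjusted p 0.371), ABI2 (0.05, adjusted p 0.828) and HAB2 (-0.04, adjusted p 0.771) were not called.

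None of the 7 tested members passed the limma test of a difference between the 30 min and the 10 min effect of waterlogging, for which 2.4% of all tested genes were called higher and 0.749% lower; 2 of the 7 had an unadjusted p under 0.05. These were AHG3 (0.16, adjusted p 0.312) and HAB1 (-0.24, adjusted p 0.0981). HAB1 was called without WT control 30 min replicate 1, its adjusted p ranging from 0.0317 to 0.257 over all alternatives.

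At 60 min the picture in WT had turned: all 7 tested members were lower in waterlogged leaves than in their controls, against 15.0% of all tested genes called lower and 14.7% called higher. NCED3 read 3.30, 3.31 and 3.17 FPKM in waterlogged leaves and 5.59, 5.67 and 6.31 FPKM in controls. The highest waterlogged library was far below the lowest control (log2 fold change -0.69, SE 0.08, limma adjusted p 7.74e-07). AHG3, which had been raised at the earlier times, read 28.0, 27.6 and 28.5 FPKM against 38.5, 42.9 and 41.3 FPKM. This was its lowest level in any group (log2 fold change -0.53, SE 0.05, limma adjusted p 1.11e-08). ABI1 read 11.5, 10.9 and 10.6 FPKM against 16.4, 17.2 and 17.4 FPKM, and HAI1 0.666, 0.856 and 1.23 FPKM against 1.82, 1.96 and 2.00 FPKM. Both were clear of their controls (log2 fold change -0.59, SE 0.06, limma adjusted p 1.61e-07 for ABI1, and log2 fold change -0.62, SE 0.12, limma adjusted p 0.000211 for HAI1).

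ABI2, the near relative of ABI1 whose dominant mutant is also ABA-insensitive, fell at 60 min from 5.04, 5.44 and 5.40 FPKM in controls to 3.59, 3.23 and 3.54 FPKM (log2 fold change -0.50, SE 0.08, limma adjusted p 5.23e-05). HAB1 fell from 27.8, 28.9 and 26.4 FPKM to 19.7, 19.7 and 18.7 FPKM (log2 fold change -0.49, SE 0.05, limma adjusted p 1.11e-07). The groups were apart for both genes. HAB2 changed least, from 19.8, 20.7 and 18.7 FPKM to 17.6, 16.5 and 18.1 FPKM, with every waterlogged library below every control (log2 fold change -0.18, SE 0.05, limma adjusted p 0.0159). The HAB2 call was lost in a fit of only the groups compared and without WT control 60 min replicate 2 or WT waterlogging 60 min replicate 2, with adjusted p from 0.00513 to 0.0924 over all alternatives. HAI2, under the filter, averaged 0.0993 ± 0.0238 against 0.317 ± 0.162 FPKM, and a fit without the filter did not call it (log2 fold change -0.25, limma adjusted p 0.0936). The median log2 fold change of the 7 tested members was -0.53, beside 0.01 over all tested genes. All 7 calls also stood without the high-rRNA library WT waterlogging 60 min replicate 3.

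**Figure D2:**
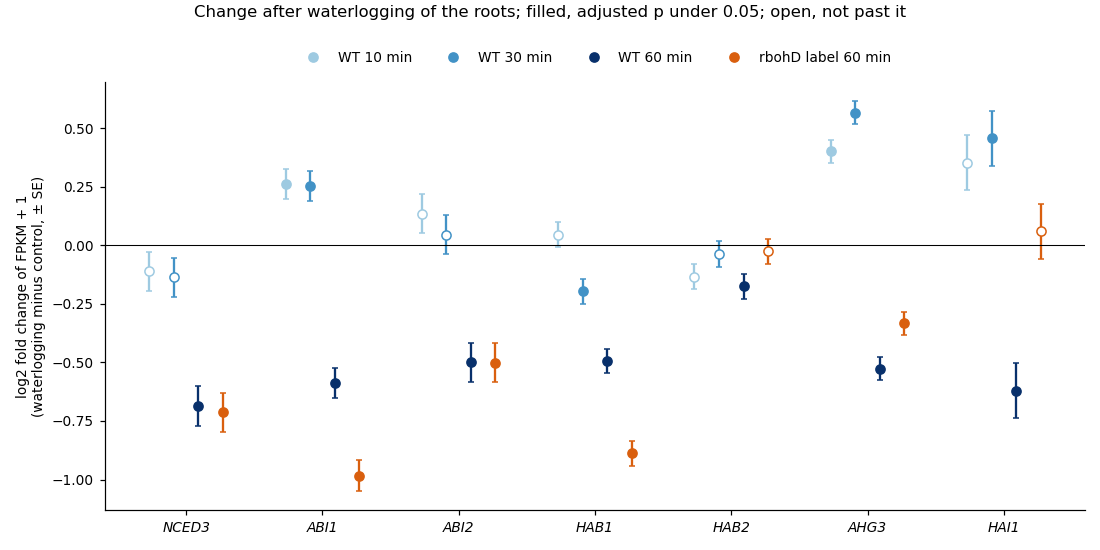
Log2 fold change of FPKM + 1 between waterlogged leaves and time-matched controls (vertical axis, linear) for the 7 tested members, with bars of 1 SE; colours mark the comparison, filled points passed an adjusted p of 0.05 and open points did not. AHG3 goes from 0.40 at 10 min and 0.57 at 30 min to -0.53 at 60 min, while NCED3 reads -0.69 in WT and -0.71 under the rbohD label at 60 min.

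The turn between 30 and 60 min was itself tested. The effect of waterlogging was lower at 60 than at 30 min for 6 of the 7 tested members, against 10.6% of all tested genes called lower and 7.38% called higher. The differences were largest for AHG3 (-1.09, adjusted p 2.1e-11), HAI1 (-1.08, adjusted p 3.3e-05) and ABI1 (-0.84, adjusted p 2.17e-07) on the log2 scale. They were smaller for NCED3 (-0.55, adjusted p 0.00158), ABI2 (-0.54, adjusted p 0.00160) and HAB1 (-0.30, adjusted p 0.00624). HAB2 was not called (-0.14, adjusted p 0.239). Effects at both times rest on different control libraries, so they share none.

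Under the rbohD label, 5 of the 7 tested members were lower after 60 min of waterlogging, against 32.7% of all tested genes called lower and 26.3% called higher. NCED3 read 3.37, 3.69 and 3.42 FPKM in waterlogged leaves and 6.79, 6.08 and 6.23 FPKM in controls (log2 fold change -0.71, SE 0.08, limma adjusted p 1.1e-07). ABI1 fell from 24.5, 27.4 and 25.7 FPKM to 13.2, 13.5 and 11.1 FPKM (log2 fold change -0.98, SE 0.06, limma adjusted p 4.61e-12). HAB1 fell from 41.4, 41.3 and 37.3 FPKM to 20.6, 20.0 and 22.8 FPKM (log2 fold change -0.89, SE 0.05, limma adjusted p 7.82e-13). In these 3 genes the groups stood far apart. ABI2 fell as well (log2 fold change -0.50, SE 0.08, limma adjusted p 1.64e-05). AHG3 fell from 44.9, 48.7 and 44.6 FPKM to 36.2, 35.2 and 37.7 FPKM (log2 fold change -0.33, SE 0.05, limma adjusted p 3.23e-06). HAI1 did not follow: it read 3.44, 3.07 and 2.38 FPKM after waterlogging and 3.01, 2.84 and 2.52 FPKM in controls, groups that overlapped (log2 fold change 0.06, SE 0.12, limma adjusted p 0.686), with a 95% interval of the difference from -0.18 to 0.30. HAB2 was also not called (-0.03, adjusted p 0.695; 95% interval from -0.14 to 0.09).

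Whether the 60 min effect differed between the genotype labels was tested as an interaction, for which 15.1% of all tested genes were called higher and 19.3% lower. Of the 7 tested members 4 were called. The effect under the rbohD label was more negative for ABI1 (log2 fold change -0.39, SE 0.09, limma adjusted p 0.00162) and HAB1 (log2 fold change -0.39, SE 0.08, limma adjusted p 0.000230). It was more positive for HAI1 (log2 fold change 0.68, SE 0.16, limma adjusted p 0.00239) and AHG3 (log2 fold change 0.19, SE 0.07, limma adjusted p 0.0332). The 60 min controls of all 4 genes already differed between the labels by call, with HAI1 (0.37, adjusted p 0.0144) and AHG3 (0.17, adjusted p 0.00833) higher under the rbohD label, and ABI1 at 25.9 ± 1.45 FPKM of ABI1 under the rbohD label against 17.0 ± 0.519 in WT. The AHG3 call was lost in a fit of only the groups compared and without any 1 of 7 libraries, which were WT control replicates 2 and 3, WT waterlogging replicates 1 and 2, rbohD control replicates 1 and 3 and rbohD waterlogging replicate 3, all at 60 min. Its adjusted p ranged from 0.00250 to 0.104 over all alternatives. NCED3 was not called, and the 95% interval of its interaction ran from -0.27 to 0.22 on the log2 scale. ABI2 gave 0.00, with an interval from -0.25 to 0.24.

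Untreated leaves also moved over the hour. ABI1 was lower in the WT controls than at 0 min at each time, with log2 fold changes of -0.39 at 10 min, -0.34 at 30 min and -0.29 at 60 min (limma adjusted p 0.000345, 0.00162 and 0.00250). These 3 comparisons share the 0 min libraries. HAB1 was lower at 10 min (-0.34, adjusted p 0.000164) and at 60 min (-0.41, adjusted p 5.03e-06), and was not called at 30 min (-0.10, adjusted p 0.365). AHG3 was higher at 60 min (0.15, adjusted p 0.0449), a call lost in 3 other settings and without WT 0 min replicate 1 or 3 or WT control 60 min replicate 2 or 3, with adjusted p from 0.00811 to 0.245 over all alternatives. The members called were thus 2 of 7 at 10 min, 1 of 7 at 30 min and 3 of 7 at 60 min. Over all tested genes 2.61% were called higher and 5.32% lower at 10 min, 1.93% and 1.98% at 30 min, and 6.22% and 6.25% at 60 min. NCED3 was not called at any of these times (-0.23, adjusted p 0.0928 at 10 min), although it was at 10 min without WT control 10 min replicate 1, with adjusted p from 0.0262 to 0.409 over all alternatives. Under the rbohD label AHG3 was higher in the 60 min controls than at 0 min (0.32, adjusted p 2.23e-05), 1 of the 7 tested members, where 10.2% of all tested genes were called higher and 13.0% lower. ABI1 was called higher there without rbohD 0 min replicate 1 and after quantile normalization, its adjusted p ranging from 0.0245 to 0.312.

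The genotype labels were compared at each shared condition. The split in 18S rRNA runs with the label at 0 min and in the 60 min controls. In waterlogged leaves at 60 min WT replicate 3 is also on the high side. It is the only library whose side differs from the rest of its group, so a term for high 18S rRNA rests on it alone. Such a term cannot separate the rRNA split from the label, here or in the comparisons that follow. At 0 min HAI1 was higher under the rbohD label, with 2.55, 2.84 and 2.9 FPKM against 1.74, 1.25 and 1.27 FPKM in WT (log2 fold change 0.64, SE 0.12, limma adjusted p 0.000128). It was the 1 member called of 7, beside 16.4% of all tested genes called higher and 16.0% lower. A term for high 18S rRNA left it at 0.30 with an adjusted p of 0.381, the highest of a range from 8.27e-05 to 0.381 over all alternatives. NCED3 (0.19, adjusted p 0.0844) was called there without WT 0 min replicate 1, its adjusted p ranging from 0.00817 to 0.378, and ABI1 (0.12, adjusted p 0.172) with protein-coding nuclear genes at equal totals, its adjusted p ranging from 0.0483 to 0.578.

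In the 60 min controls 5 of 7 members were higher under the rbohD label, and 19.0% of all tested genes were called higher and 19.6% lower. These were ABI1 (0.57, adjusted p 1.45e-07), HAB1 (0.51, adjusted p 3.64e-08), HAI1 (0.37, adjusted p 0.0144), ABI2 (0.22, adjusted p 0.0358) and AHG3 (0.17, adjusted p 0.00833). With a term for high 18S rRNA ABI1 and HAB1 were called and the other 3 were not. The ABI2 call was also lost without any 1 of the 3 WT control libraries or rbohD control 60 min replicate 2 and in a fit of only the groups compared (adjusted p from 0.00441 to 0.485 over all alternatives). The HAI1 call was lost without replicate 1 of either group (from 0.00209 to 0.950). The AHG3 call was lost without WT control 60 min replicate 1 or rbohD control 60 min replicate 2 and in a fit of only the groups compared (from 0.00259 to 0.364).

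In waterlogged leaves at 60 min 4 of 7 were higher under the rbohD label, and 14.6% of all tested genes were called higher and 20.0% lower. HAI1 differed most, at 2.97 ± 0.539 against 0.916 ± 0.286 FPKM (log2 fold change 1.05, SE 0.12, limma adjusted p 2.05e-07), and every library labelled rbohD was above every WT library. AHG3 stood at 36.4 ± 1.26 against 28.0 ± 0.457 FPKM (log2 fold change 0.36, SE 0.05, limma adjusted p 3.63e-06). ABI1 (0.18, adjusted p 0.0351) and ABI2 (0.22, adjusted p 0.0412) were not called with a term for high 18S rRNA or in a fit of only the groups compared. ABI1 was also lost without WT waterlogging replicate 2 or 3 or rbohD waterlogging replicate 1 or 2, with adjusted p from 0.00206 to 0.202 over all alternatives. ABI2 was also lost with no filter, with trend and robust options, and without any 1 of the 3 WT waterlogging libraries or rbohD waterlogging replicate 2 or 3 (from 0.00688 to 0.282). HAB1 (0.12, adjusted p 0.0873) was called without rbohD waterlogging replicate 2 (from 0.0453 to 0.366). NCED3 was not called in the 60 min controls (0.10, adjusted p 0.353) or in waterlogged leaves (0.08, adjusted p 0.511).

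The balance between paralogous phosphatases was described as a ratio of FPKM within each library. HAB1 over HAB2 was 1.40 ± 0.00974 in WT controls at 60 min and 1.12 ± 0.0829 in waterlogged leaves. Under the rbohD label it was 2.12 ± 0.0519 and 1.14 ± 0.0646. The libraries did not overlap in either pair. Two-sided exact permutation tests of 3 against 3 libraries gave p 0.1, the smallest they allow, in 7 of the 8 ratio comparisons, and none passed after adjustment (0.114). ABI1 over ABI2 was the exception at 60 min in WT, at 3.19 ± 0.183 after waterlogging and 3.22 ± 0.0510 in controls (exact permutation p 0.8).

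Several receptors moved opposite to the phosphatases at 60 min. Of the 14 PYR/PYL receptors 8 were tested, and 1 was called higher at 10 min, 3 at 30 min, 4 at 60 min in WT and 5 at 60 min under the rbohD label. Over all tested genes 4.14%, 7.78%, 14.7% and 26.3% were called higher in these comparisons. PYL4 averaged 25.8 ± 1.77 FPKM in WT controls and 98.4 ± 4.44 in waterlogged leaves at 60 min (log2 fold change 1.89, SE 0.09, limma adjusted p 1.93e-13), and 20.3 ± 1.19 and 113 ± 13.6 FPKM under the rbohD label (2.42 on the log2 scale). PYL5 rose at every time, by 0.77, 1.16 and 1.90 on the log2 scale in WT, and from 2.26 ± 0.0625 to 44.4 ± 3.41 FPKM under the rbohD label (log2 fold change 3.80, SE 0.10, limma adjusted p 3.03e-19). PYR1, the founding member of the family, rose by 0.61 in WT and 1.18 under the rbohD label at 60 min. PYL6 lay under the filter and was not tested; it averaged 0.660 ± 0.202 and 2.85 ± 0.337 FPKM in WT at 60 min, and 0.312 ± 0.247 and 3.97 ± 0.558 FPKM under the rbohD label. The interaction was called for PYL5 (1.90, adjusted p 4.08e-10), PYR1 (0.58, adjusted p 0.000211) and PYL4 (0.52, adjusted p 0.00363).

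Summed over all listed genes, the 14 receptors stood at 135 ± 4.39 FPKM in WT controls at 60 min and at 248 ± 6.02 FPKM in waterlogged leaves. The 9 phosphatases stood at 113 ± 4.14 and 80.3 ± 1.22 FPKM. The rise of the receptor sum came largely from PYL4, whose values are given above, and not from all receptors alike. The ratio of the sums was 1.20 ± 0.0486 in controls and 3.09 ± 0.118 in waterlogged leaves. Under the rbohD label it went from 0.749 ± 0.00957 to 2.95 ± 0.0935. At 30 min in WT it was 1.12 ± 0.00709 in controls and 1.09 ± 0.00358 in waterlogged leaves, with both sums higher after waterlogging. The sums describe transcripts per length and carry no test.

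**Figure D3:**
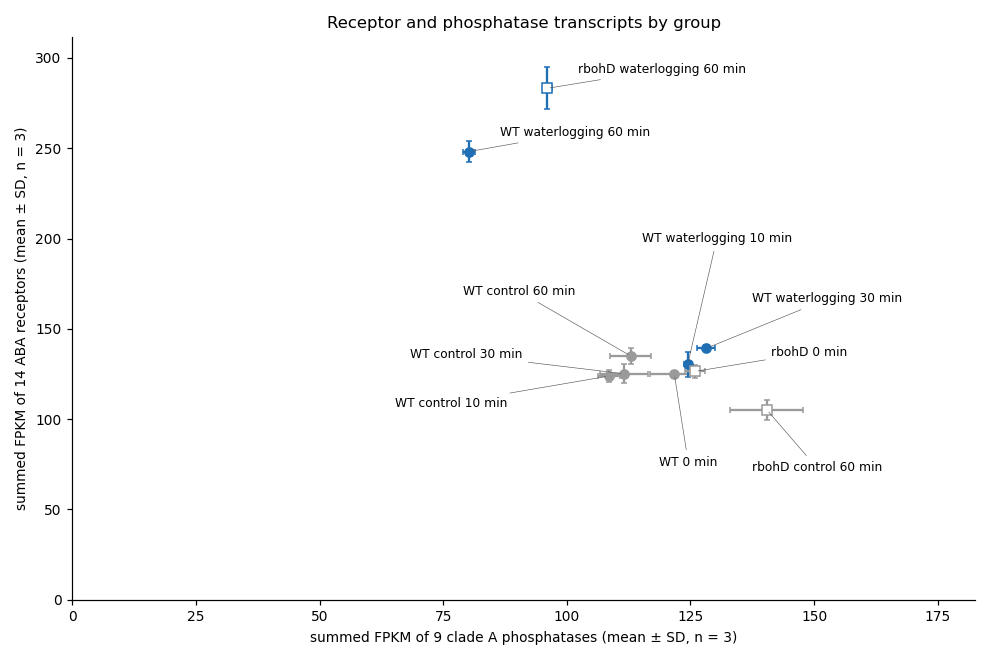
Summed FPKM of the 14 listed ABA receptors (vertical axis, linear) against that of the 9 clade A phosphatases (horizontal axis, linear) for the 10 groups; points are means of 3 libraries, bars are SD, blue marks waterlogged leaves, and open squares mark the rbohD label. The waterlogged groups at 60 min lie apart at upper left, with receptor sums of 248 and 283 FPKM, and the other 8 groups lie between 105 and 139 FPKM.

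Downstream of the phosphatases, most kinase genes were not called at the early times. Of 10 SnRK2 genes 8 were tested, with 1 called higher at 30 min, 2 higher and 1 lower at 60 min in WT, and 4 higher and 2 lower under the rbohD label. Over all tested genes 7.78% were called higher at 30 min, 14.7% higher and 15.0% lower at 60 min in WT, and 26.3% higher and 32.7% lower under the rbohD label, so the counts of 2 and 1 of 8 in WT at 60 min lie near the background. OST1, the kinase of guard cells, was not called in any of the 4 comparisons (0.19, adjusted p 0.176 in WT at 60 min). SNRK2.3, which acts with it in ABA responses, rose by 0.58 in WT and 1.48 under the rbohD label at 60 min. SNRK2.8 was lower in both (-0.51 and -0.86), and SNRK2.5 fell under the rbohD label (-0.48).

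Of 8 bZIP factors of the ABF group and its relatives 6 were tested, and 1 was called lower at 30 min, 2 at 60 min in WT and 3 under the rbohD label, where 4.10%, 15.0% and 32.7% of all tested genes were. ABF3 was lower at 30 min (-0.23, adjusted p 0.00614), and at 60 min ABF2 and ABF3 were lower in WT (-0.71 and -0.61) and under the rbohD label (-1.17 and -0.83). ABF4 was lower under the rbohD label (-0.59, adjusted p 1.25e-07) and was not called in WT (-0.15, adjusted p 0.120). ABF3, the most abundant of the named factors, averaged 49.7 ± 1.18 FPKM in WT controls and 32.1 ± 0.996 in waterlogged leaves.

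Among ABA-responsive output genes, 6 of 9 were tested, and at 60 min 4 were lower in WT, while 2 were higher and 3 lower under the rbohD label. Over all tested genes 15.0% were lower in WT, and 26.3% were higher and 32.7% lower under the rbohD label, which the counts under that label lie near. ATHB7 and ATHB12, homeodomain factors known to raise transcription of clade A phosphatase genes in Arabidopsis, were lower in WT (-0.68 and -0.60) and under the rbohD label (-0.59 and -1.69) at 60 min. ATHB7 was higher at 10 min (0.28, adjusted p 0.00449), and ATHB12 was lower at 30 min (-0.44, adjusted p 5.04e-05). RAB18, a dehydrin often used as an ABA marker, was not called at 10 min (0.11, adjusted p 0.799), 30 min (0.05, adjusted p 0.857) or 60 min (-0.23, adjusted p 0.127) in WT, nor under the rbohD label (0.18, adjusted p 0.174). RD26, a NAC factor, rose under the rbohD label (1.36, adjusted p 4.95e-07) and was not called in WT at 60 min (-0.30, adjusted p 0.220).

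Of the other synthesis genes 5 of 9 were tested, and 1 was lower at 60 min in WT and 4 under the rbohD label, beside 15.0% and 32.7% of all tested genes. ABA1, zeaxanthin epoxidase, was lower in both (-0.30 and -0.47). ABA4, of neoxanthin synthesis, and ABA2, xanthoxin dehydrogenase, were lower under the rbohD label (-0.24, adjusted p 0.0128 and -0.29, adjusted p 0.0268).

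CYP707A3, an ABA hydroxylase of ABA breakdown, had the largest change among the tested pathway genes at 10 and 30 min. It averaged 4.04 ± 0.388 FPKM in controls and 27.7 ± 0.824 in waterlogged WT leaves at 10 min (log2 fold change 2.51, SE 0.11, limma adjusted p 2.79e-14), and 3.00 ± 0.500 and 41.8 ± 0.830 FPKM at 30 min (3.43). At 60 min it was lower in WT (-0.38, adjusted p 0.00846) and higher under the rbohD label (1.25, adjusted p 6.12e-10). CYP707A1, its relative of guard cells, was called under the rbohD label (0.41, adjusted p 0.00927) and not in WT (0.36, adjusted p 0.0810 at 30 min). BGLU18, a glucosidase that releases ABA from its glucose ester, was higher at 10 and 30 min (0.28 and 0.66), lower at 60 min in WT (-0.57) and higher under the rbohD label (2.27). Under that label BGLU18 averaged 2899 ± 44.9 FPKM at 0 min, 194 ± 6.27 in the 60 min controls and 939 ± 60.7 in waterlogged leaves, so the waterlogged leaves lay above controls that were far below the 0 min level. UGT71C5, which makes that ester, was higher at 60 min in both (0.33 and 0.53). Of the 8 catabolism and conjugation genes 7 were tested, with 2 called higher at 10 min, 2 higher at 30 min, 2 higher and 2 lower at 60 min in WT, and 4 higher and 2 lower under the rbohD label. The shares of all tested genes were 4.14% and 7.78% higher at 10 and 30 min, 14.7% higher and 15.0% lower at 60 min in WT, and 26.3% higher and 32.7% lower under the rbohD label.

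Of 6 transport genes 3 were tested, with 1 called higher at 10 min and 2 at 30 min in WT. At 60 min 1 was higher and 1 lower in WT, and 2 were higher under the rbohD label. Over all tested genes 4.14% and 7.78% were called higher at 10 and 30 min. At 60 min 14.7% were higher and 15.0% lower in WT, and 26.3% were higher under the label. DTX50, an ABA exporter, was higher at 10 and 30 min (0.82 and 1.26) and lower at 60 min (-0.87) in WT, and was not called under the rbohD label (0.17, adjusted p 0.0703). NPF4.6, an importer, was higher at 30 and 60 min in WT (0.33 and 0.36) and under the rbohD label (0.68). The exporter ABCG25 was called under the rbohD label alone among the 4 comparisons (0.21, adjusted p 0.0479), with adjusted p from 0.0269 to 0.196 over all alternatives.

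All 8 genes listed as acting on the phosphatases were tested, with 1 called higher at 60 min in WT and 3 higher and 1 lower under the rbohD label. The shares of all tested genes were 14.7% higher in WT, and 26.3% higher and 32.7% lower under the rbohD label. PUB13, a U-box ligase that ubiquitinates ABI1, rose in both (0.40 and 0.54), and its relative PUB12 under the rbohD label (0.54, adjusted p 0.000521). AT5G22090 fell under the rbohD label, from 40.7 ± 2.56 to 29.2 ± 3.05 FPKM (-0.47, adjusted p 1.21e-05), and was not called in WT at 60 min (0.05, adjusted p 0.653). All 6 listed regulators of NCED3 were tested, with 1 called higher at 10 min and 1 at 30 min in WT. At 60 min 1 was higher and 2 lower in WT, and 2 were higher and 4 lower under the rbohD label. Over all tested genes 4.14% and 7.78% were called higher at 10 and 30 min. At 60 min 14.7% were higher and 15.0% lower in WT, and 26.3% and 32.7% under the label. The 3 named here had the largest changes, and the other called regulators are not described. HAT1, a homeodomain factor known to repress NCED3, was higher at each time, by 0.52, 0.87 and 0.45 in WT and by 1.02 under the rbohD label. WRKY57, known to activate NCED3, was lower at 60 min in WT (-0.67, adjusted p 0.000750) and under the rbohD label (-1.10, adjusted p 4.76e-07). BAM1, a receptor kinase required for NCED3 induction by a root-derived peptide, was lower under the rbohD label (-0.57, adjusted p 5.98e-10) and not called in WT (-0.07, adjusted p 0.294).

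**Figure D4:**
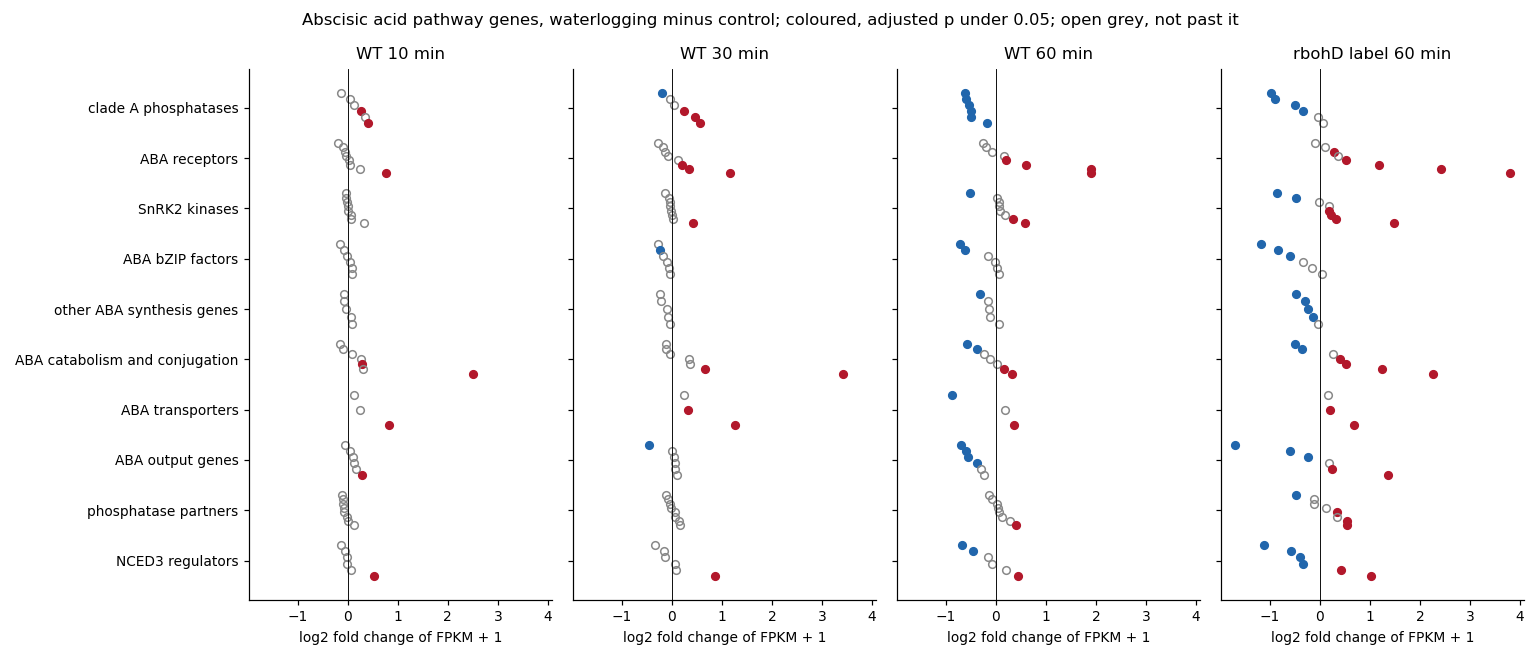
Log2 fold change of FPKM + 1 between waterlogged leaves and time-matched controls (horizontal axes, linear, shared) for each tested gene of 10 lists (rows) in the 4 comparisons; red and blue points passed an adjusted p of 0.05 and open grey points did not. At 60 min all 6 tested phosphatases of WT lie left of 0, while PYL4 and PYL5 lie at 1.89 and 1.90; CYP707A3 is the outlying point at 10 and 30 min.

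Some markers of cell types in which ABA acts were also called, and their part in the changes above was not tested. At 60 min 14.7% of all tested genes were called higher and 15.0% lower in WT, and 26.3% and 32.7% under the rbohD label. At 30 min in WT 4.10% were called lower. Of 6 guard cell markers 5 were tested, and KAT1 and MYB60 were lower at 60 min in WT (-0.28 and -0.47) and under the rbohD label (-0.74 and -0.81), whereas AT1G22690 was higher (0.50 and 0.62). HT1 and FAMA were not called at 60 min in either comparison. Under the rbohD label the counts of 1 higher and 2 lower of 5 lie near the shares of all tested genes. The summed guard cell markers ranged from 90.5 to 125 FPKM over the libraries, and no marker of the list was at 0 in all of them. All 3 phloem markers were tested and summed to 96.2 to 124 FPKM. SEOR1 was lower at 60 min in WT (-0.21) and under the rbohD label (-0.35), and under that label APL was also lower (-0.40) and SUC2 higher (0.27). At 30 min in WT MYB60 (-0.41) and SEOR1 (-0.15) were lower. Of the leaf markers RCA was lower at 60 min in WT (-0.17), and under the rbohD label CAB1 was higher (0.15) and RCA and RBCS1A were lower (-0.14 and -0.14).

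The members differed in how they varied over the 10 group means of log2(FPKM + 1), where Pearson's r is given as a description. ABI1 followed ABI2 (r 0.95) and HAB1 (r 0.93), and NCED3 followed HAB1 (r 0.85) and ABI1 (r 0.83). AHG3 had similar values with HAI1 (r 0.66), ABI2 (r 0.66) and ABI1 (r 0.64), and the lowest with HAB2 (r 0.01). Among tested genes that averaged 5 FPKM or more and ranged over at least 1.5-fold, BEL1 was most like NCED3 (r 0.98), AT1G36730 most like ABI1 (r 0.99), PAP17 most like ABI2 (r 0.98), AT5G15950 most like HAB1 (r 0.99), ECT6 most like AHG3 (r 0.93) and GTR1 most like HAI1 (r 0.92). HAB2, whose group means spanned a 1.14-fold range, had no gene above 0.76. The 10 points include both waterlogged groups at 60 min, where NCED3, ABI1, ABI2 and HAB1 were lowest.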

How the data were processed

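RNA of systemic leaves was sequenced in 30 libraries, grouped by the sample titles. Per the file headers, the authors deposited FPKM per gene, each with lower and upper bounds and a status. Per the submitters' processing notes, Trim Galore 0.6.7, HISAT2 2.2.1, Cufflinks 2.2.1 and Cuffdiff were used with TAIR10; annotation and strand use are not given in the sources used here. FPKM are not counts, so no count model was used. After 2 repeated identifiers and 2 genes with a failed status were left out of 32826 rows, 32820 genes remained. Fits used limma 3.58.1 in R 4.3.3 (lmFit, contrasts.fit, eBayes) on log2(FPKM + 1), with a mean of at least 1 FPKM (17491 genes), all 10 groups together and 20 residual degrees of freedom; p-values were adjusted by Benjamini-Hochberg within each of 14 comparisons. The fit was tested on simulated data. Python 3.11.15 with matplotlib 3.10.9, scipy 1.17.1, pandas 2.3.3 and numpy 2.4.6 made tables and plots.

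Replicates correlated across genes at r 0.974 to 0.988 and at most 0.0095% of their nonzero values were identical, so all libraries were counted. Identifiers were matched by locus tag to RefSeq TAIR10.1 (99.1%), and 99.9% of nuclear genes had identical boundaries. The members and lists were chosen with earlier results of these data known. Named were all members, up to 3 called genes per list by largest change, and OST1, PYL4, PYL5, PYL6, ABF3, CYP707A1, CYP707A3 and RAB18 in any case; 3 listed identifiers had no name in the tables. Markers are named apart from this rule. Genes most like a member were ranked by Pearson's r. Alternatives were a pseudocount of 0.1, no filter, a minimum mean of 5 FPKM, quantile normalization, protein-coding nuclear genes at equal totals, eBayes with trend and robust options, fits of only the groups compared, a replicate block, a term for 18S rRNA above 3000 FPKM, and leaving out each library.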

Additional observations from a re-analysis of the deposited data

Results flagged for a closer look

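The effect of 60 min of waterlogging differed between the genotype labels for 4 members by limma's test of the difference: -0.39 for ABI1, -0.39 for HAB1, 0.68 for HAI1 and 0.19 for AHG3 on the log2(FPKM + 1) scale, as rbohD label minus WT. Each of the 4 values sets 6 libraries labelled rbohD against 6 of WT. Those 6 libraries labelled rbohD and 1 of the WT libraries held high 18S rRNA, and the part of that split in the differences was not tested. A term for it only sets that WT library aside in this comparison, and 4 members were called with it.

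In WT the effect of waterlogging at 60 min differed from that at 30 min for 6 members by the same kind of test: -0.55 for NCED3, -0.84 for ABI1, -0.54 for ABI2, -0.30 for HAB1, -1.08 for HAI1 and -1.09 for AHG3. For ABI1, HAI1 and AHG3 the effect was called higher at 30 min and lower at 60 min. For NCED3 and ABI2 it was not called at 30 min.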

How the results depend on the processing

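No call of a member reversed its direction under any alternative run: of 854 values under other settings 834 kept their side of the threshold, 18 lost the call and 2 gained it, and of 714 values with 1 library left out 671 kept it, 38 lost it and 5 gained it. The median over all tested genes stayed within 0.0716 of 0 (log2) in each comparison and setting. The number of members called moved by more than 1.5 times in these cases. For the rbohD control at 60 min against 0 min it was 2 after quantile normalization. Between the labels at 0 min it was 0 with a mean of at least 5 FPKM, which leaves HAI1 out, 2 with equal totals and 0 with the 18S rRNA term. In the 60 min controls it was 2 with that term and 3 in a fit of only the groups compared, and in waterlogged leaves at 60 min 2 and 2. With 1 library left out the number called ran from 1 to 2 for WT waterlogging at 10 min, from 0 to 1 for the 30 against 10 min effect, from 1 to 2 for the rbohD controls, from 1 to 2 between the labels at 0 min, from 2 to 5 in the 60 min controls and from 2 to 3 in waterlogged leaves at 60 min; the cause was not tested.

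The replicate numbers did not pair the samples: deviations of same-numbered libraries correlated at -0.145 to 0.15, and in 0 of 11 comparisons of 2 groups did every pair exceed 0.1. A replicate block changed 0 of 98 calls of members, and 7 members were called at 60 min in WT with it. Low levels limit what can be said of a fall in HAI2, HAI3 and AHG1. In any library HAI2 reached at most 0.557 FPKM, HAI3 0.0781 and AHG1 0.0714. The fit without the filter called none of these genes in any of the 14 comparisons. HAI1, the lowest of the tested members, rested on 24.9 to 117 fragments per library, judged by the authors' intervals. Its lowest library, at 0.666 FPKM, was among the waterlogged WT leaves at 60 min.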
